A study of Mus musculus with 6 samples.

Results

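Genes of the lung endothelium, the cell layer that lines the blood and lymph vessels, were followed in mouse lungs labelled Foxa2-/- and in control lungs. The 36 genes form a named list of endothelial markers and regulators, chosen for what they are known to do, and all 36 had at least 1 probe set among the 18193 genes of the array. A gene was represented by its probe set with the highest mean over the 6 arrays, and 17 of the 36 had more than 1 probe set (67 in all). The tissue was whole lung at postnatal day 15, with 3 arrays from controls, whose genotype label reads wildtype, and 3 from lungs with the genotype label Foxa2-/-. The series' design text calls the controls littermates, but no label ties a lung to a litter, so litter could not enter any fit. The strain label is the same in both groups: it reads SPC(+)Cre(-) with Dox, taken here as doxycycline, from embryonic day 6.5 to 12.5. It thus names no active Cre in the Foxa2-/- lungs, and the labels do not say which cells lost Foxa2. The study's design text asks how Foxa2, a forkhead transcription factor of the airway and alveolar epithelium, bears on type 2 inflammation and goblet cell hyperplasia.

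Endothelial cells are held together by junction proteins such as VE-cadherin and claudin-5, and they respond to vascular endothelial growth factors (VEGF) and angiopoietins through receptor tyrosine kinases. Transcription factors of the ETS and SOX families maintain their identity. In the lung, most of them form the alveolar capillaries, where gas is exchanged and where angiotensin-converting enzyme acts on circulating peptides. In inflamed venules, selectins on the endothelial surface catch passing leukocytes.

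Promoters are shown for the selectins Selp and Sele, because Selp had the largest difference among the 36 genes. Tek and Efnb2 are shown from the 7 genes that lay lower in every Foxa2-/- lung, picked by smallest p. Sox17, whose p lay between theirs, is named only, since no promoter was found for it. Each sequence is the 250 bases before an annotated start in RefSeq (GRCm38.p6), written 5′ to 3′ on the gene's strand. They lie at chr1:164115014-164115263 (Selp, plus strand), chr1:164047984-164048233 (Sele, plus strand), chr4:94739039-94739288 (Tek, plus strand) and chr8:8661243-8661492 (Efnb2, minus strand). Capitals mark matches, on either strand, to AGGAAG (the core bound by ETS factors), TTCNNNGAA (a spacing bound by STAT factors), the STAT6-type spacing with 1 more base between its arms, AGATAA (recognised by the GATA factors), TGTTTAC (forkhead factors) or TATAAA (known as the TATA box).
Selp: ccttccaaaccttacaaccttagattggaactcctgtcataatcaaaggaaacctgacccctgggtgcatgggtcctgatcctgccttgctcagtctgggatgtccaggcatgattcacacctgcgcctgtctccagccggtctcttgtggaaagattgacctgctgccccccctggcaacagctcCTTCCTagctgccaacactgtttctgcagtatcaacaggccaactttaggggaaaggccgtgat
Sele: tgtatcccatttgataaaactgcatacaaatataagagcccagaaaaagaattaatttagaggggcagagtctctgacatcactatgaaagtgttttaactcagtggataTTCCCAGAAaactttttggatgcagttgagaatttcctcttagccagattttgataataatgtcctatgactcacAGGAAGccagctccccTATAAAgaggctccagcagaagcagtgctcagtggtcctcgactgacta
Tek: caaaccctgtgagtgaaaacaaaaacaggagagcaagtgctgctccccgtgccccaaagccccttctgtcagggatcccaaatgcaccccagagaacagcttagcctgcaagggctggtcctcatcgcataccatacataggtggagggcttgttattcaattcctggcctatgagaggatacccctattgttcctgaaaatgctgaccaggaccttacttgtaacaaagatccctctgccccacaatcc
Efnb2: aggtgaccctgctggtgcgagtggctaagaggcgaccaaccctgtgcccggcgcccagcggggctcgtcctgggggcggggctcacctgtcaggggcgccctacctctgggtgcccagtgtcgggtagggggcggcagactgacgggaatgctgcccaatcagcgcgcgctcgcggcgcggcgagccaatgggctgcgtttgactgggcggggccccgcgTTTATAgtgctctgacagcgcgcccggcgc

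Selp and Sele each held 1 match to AGGAAG, at 64 and 65 bases before the start counted to its first base, and only Sele held matches to TTCNNNGAA and TATAAA. The Tek window held none of these letters, and the Efnb2 window, which was 72% G or C with 27 CpG pairs, held 1 reverse match to TATAAA. Promoters were found for 24 of the 36 genes, 30 windows in all, of which 15 (50%) held AGGAAG against 29.5% of 32851 windows over all genes. The STAT6-type spacing was in 2 of the 30 (5.85% over all genes), TTCNNNGAA in 1 (7.02%), AGATAA in 1 (9.99%), TATAAA in 6 (12.4%) and TGTTTAC in 0 (3.17%). Endothelial windows were also richer in G and C, with a median of 58.2% against 52.4%, and how much of the difference in AGGAAG goes with base composition was not tested.

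Foxa2 itself read 10.28, 10.56 and 10.28 on the log2 scale in controls and 7.72, 5.38 and 5.13 in Foxa2-/- replicates 1 to 3, so every Foxa2-/- lung lay below every control and replicate 1 kept the most signal. The difference was -4.30 (SE 0.66), with a limma adjusted p of 0.0599 over all genes. Replicates 2 and 3 lay under their arrays' 25th percentiles, where signal was not shown to exceed background, so the true difference may be larger. Array medians ran from 7.85 to 7.91, and 3 arrays a group limit the precision of every value. Signal of the Gapdh control probe sets, a gauge of RNA quality, was higher toward the 3-prime than the 5-prime end by 1.06 to 1.23 in controls and by 0.907 to 0.974 in Foxa2-/- lungs on the log2 scale. For the beta-actin control probe sets it was higher by 0.463 to 0.648 in controls and by 0.427 to 0.468 in Foxa2-/- lungs, so those groups overlapped. The part of RNA quality in the differences below was not tested. Control replicate 2 and Foxa2-/- replicates 2 and 3 share the first number in their sample titles, whose meaning is not given. Foxa2-/- replicate 1 stood apart from the other Foxa2-/- lungs, so values without it are given where they bear on a result.

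None of the 36 endothelial genes passed the test between Foxa2-/- and control lungs, either upward or downward (limma, adjusted p under 0.05 over 18193 genes, the smallest among the 36 being 0.274). Over all genes, 0.572% were called, 0.473% as higher and 0.0989% as lower. The endothelium-wide genes Pecam1, Cdh5, Icam2 and Egfl7 differed by -0.15 to -0.007 on the log2 scale. These were among the smaller differences: Esam, Emcn, Cldn5, Tek, Kdr and Tie1 differed by -0.42 to -0.19. For 32 of the 36 genes the 95% interval of the difference lay inside 2-fold in both directions, and for 17 it lay inside 1.5-fold. The 4 with a wider interval were Plvap, Prox1, Selp and Lyve1. At an unadjusted p under 0.05 there were 4 of the 36 genes, which is 11.1% against 12.3% of all genes: Selp, higher (7.28% of all genes), and Tek, Sox17 and Efnb2, lower (5.07% of all genes).

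Most of the small differences had the same sign. In 30 of the 36 genes the Foxa2-/- mean was lower than the control mean (83.3%, against 49.2% of all genes), with a median difference of -0.16 on the log2 scale against 0.0053 over all genes. Every Foxa2-/- lung lay below all controls for 7 genes (19.4%, where all genes gave 8.73%) and above all controls for 1 (2.78%, against 10.8%), 8 genes in all where 19.6% of all genes had groups that did not overlap. The median was -0.25 without Foxa2-/- replicate 1, -0.053 without Foxa2-/- replicate 2 and -0.10 without Foxa2-/- replicate 3. Between Foxa2-/- replicates 2 and 3 and the 1 control with their title number it was -0.29, with 31 of the 36 genes lower. RNA of a whole lung does not tell fewer endothelial cells apart from less of these RNAs per cell.

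The Foxa2-/- lungs differed among themselves. In replicates 2 and 3 together, 21 of the 36 genes lay below every control (58.3%, against 19.1% of all genes), whereas replicate 1 lay above every control for 13 of them (36.1%, against 43.6%). For 9 genes (25%, against 5.30% of all genes) replicate 1 was above every control while replicates 2 and 3 were both below. Relative to the control mean of each gene, the median over the 36 genes was 0.11 in Foxa2-/- replicate 1, -0.26 in replicate 2 and -0.21 in replicate 3, and the controls gave 0.03, 0.02 and -0.06. Over all genes the same medians were 0.09, -0.02 and -0.03 in Foxa2-/- replicates 1 to 3, so the value of replicate 1 lay near that of its whole array. The median over the 36 genes thus ranged further between Foxa2-/- lungs than between controls. Single genes did not all do so: Plvap, Prox1 and Erg, among others, had the larger SD in controls.

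**Figure D1:**
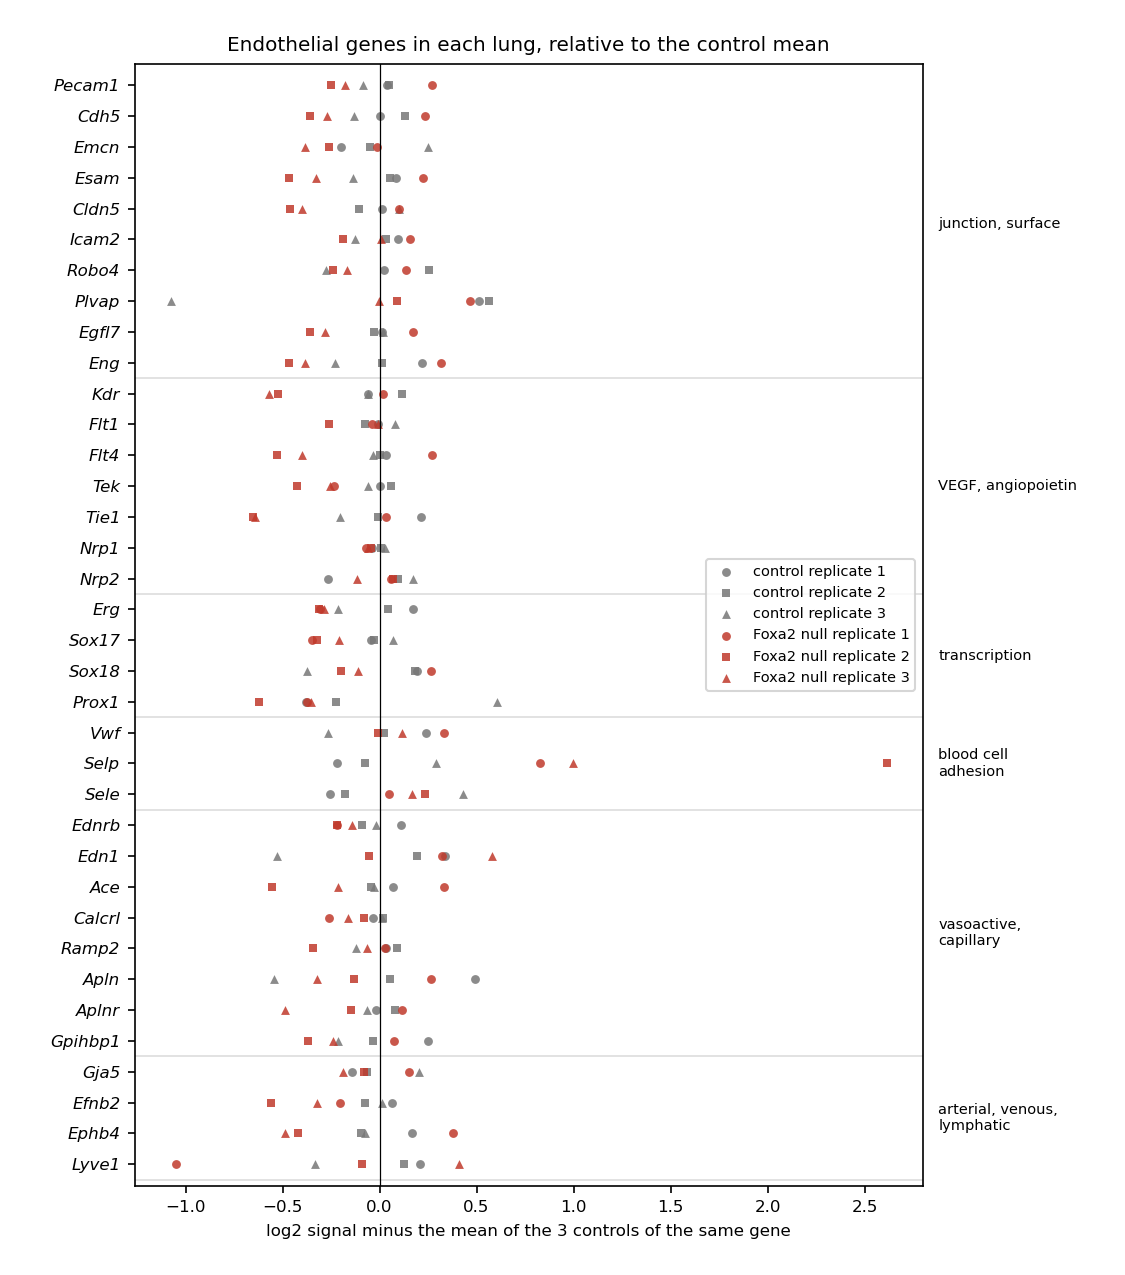
Log2 signal of each of 36 endothelial genes in each lung, minus the mean of the 3 controls for that gene; grey marks are controls, red marks Foxa2-/- lungs, and shapes give the replicate. Red squares and triangles (Foxa2-/- replicates 2 and 3) lie left of all grey marks for 21 genes, while red circles (replicate 1) lie right of all grey marks for 13, and Selp stands out to the right.

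Among the junction and surface proteins, 9 of 10 genes had a lower mean in Foxa2-/- lungs, none passed the test, and the groups overlapped for all 10. Icam2, a ligand of leukocyte integrins and the brightest of them, read 13.15, 13.08 and 12.92 in controls and 13.21, 12.86 and 13.06 in Foxa2-/- lungs. The groups were interleaved and the difference was -0.007 (95% interval -0.33 to 0.31).

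Cldn5, the claudin that seals endothelial junctions, read 13.18, 13.06 and 13.27 in controls and 13.27, 12.71 and 12.77 in Foxa2-/- lungs. Replicate 1 was level with the controls and replicates 2 and 3 were below them (difference -0.25, SE 0.17, limma adjusted p = 0.619). Pecam1 (CD31), a general surface marker of endothelium, read 12.13, 12.14 and 12.01 in controls and 12.37, 11.85 and 11.92 in Foxa2-/- lungs, which placed replicate 1 above and replicates 2 and 3 below the controls. Its difference was -0.05 with a 95% interval of -0.44 to 0.34.

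Cdh5, which encodes VE-cadherin, repeated that split, with 12.06, 12.19 and 11.93 in controls and 12.30, 11.70 and 11.79 in Foxa2-/- lungs. Its difference was -0.13 (95% interval -0.57 to 0.31). Esam, an adhesion molecule of endothelial junctions, differed by -0.19, Egfl7, a secreted endothelial protein, by -0.15, and Eng, a co-receptor for TGF-beta and BMP ligands, by -0.18. In all of these, Foxa2-/- replicate 1 was the highest of the 6 lungs. The Egfl7 probe set carries the suffix described below for Sox17, and the other Egfl7 probe sets gave -0.17 to -0.07. Emcn, an endothelial sialomucin, differed by -0.22, and Robo4, an endothelial receptor of the roundabout family, by -0.09.

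Plvap, which forms the diaphragms of endothelial fenestrae and caveolae, was the exception in sign and in spread. Controls read 12.60, 12.65 and 11.01, and Foxa2-/- lungs 12.55, 12.18 and 12.09, so 1 control lay below all other lungs. The difference of 0.18 (SE 0.45) became -0.35 (SE 0.18) without control replicate 3.

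Of the 7 receptors and co-receptors for VEGF and angiopoietins, 6 had a lower mean in Foxa2-/- lungs. For Tek and Nrp1 every Foxa2-/- lung lay below all controls (28.6%, against 8.73% of all genes). Tek, the angiopoietin receptor TIE2, read 13.22, 13.27 and 13.16 in controls and 12.98, 12.79 and 12.96 in Foxa2-/- lungs. Every Foxa2-/- lung, replicate 1 included, lay below every control. The difference was -0.30 (SE 0.11, 95% interval -0.57 to -0.04), 1.23-fold lower, with a limma adjusted p of 0.333. Tie1, the partner receptor of TIE2, had a larger mean difference (-0.42, SE 0.22) with overlapping groups, since replicate 1 read 12.12 and replicates 2 and 3 read 11.43 and 11.44 against 12.30, 12.08 and 11.88 in controls.

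Kdr (VEGF receptor 2), the main signalling receptor for VEGF-A, read 12.07, 12.25 and 12.07 in controls and 12.15, 11.60 and 11.56 in Foxa2-/- lungs. Replicates 2 and 3 were below the controls and replicate 1 was among them. Its difference was -0.36 (SE 0.18, limma adjusted p = 0.496), -0.55 without replicate 1 (adjusted p = 0.0902) and -0.66 within the shared title number. Flt4, the receptor for VEGF-C and VEGF-D, differed by -0.22, with replicate 1 at 11.68 above the controls (11.38 to 11.45) and replicates 2 and 3 at 10.88 and 11.01 below them. Flt1 (VEGF receptor 1), which also has a soluble form that traps VEGF, differed by -0.10, and its 4 probe sets gave -0.31 to -0.01.

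Neuropilins are co-receptors for VEGF and class 3 semaphorins. Nrp1 read 13.35, 13.40 and 13.42 in controls and 13.32, 13.35 and 13.33 in Foxa2-/- lungs, a difference of -0.06 (95% interval -0.29 to 0.17) even though the groups did not overlap. Its probe sets disagreed in sign: the next brightest differed by -0.09 and another by -0.03, while the dimmest read 10.56, 10.58 and 9.81 in controls and 10.82, 10.92 and 11.02 in Foxa2-/- lungs, every Foxa2-/- lung above every control (0.61, SE 0.23, limma adjusted p = 0.416 over probe sets). With the mean of its probe sets Nrp1 was 0.11. Nrp2 differed by 0.005, with -0.06, 0.12 and 0.27 from its other probe sets.

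**Figure D2:**
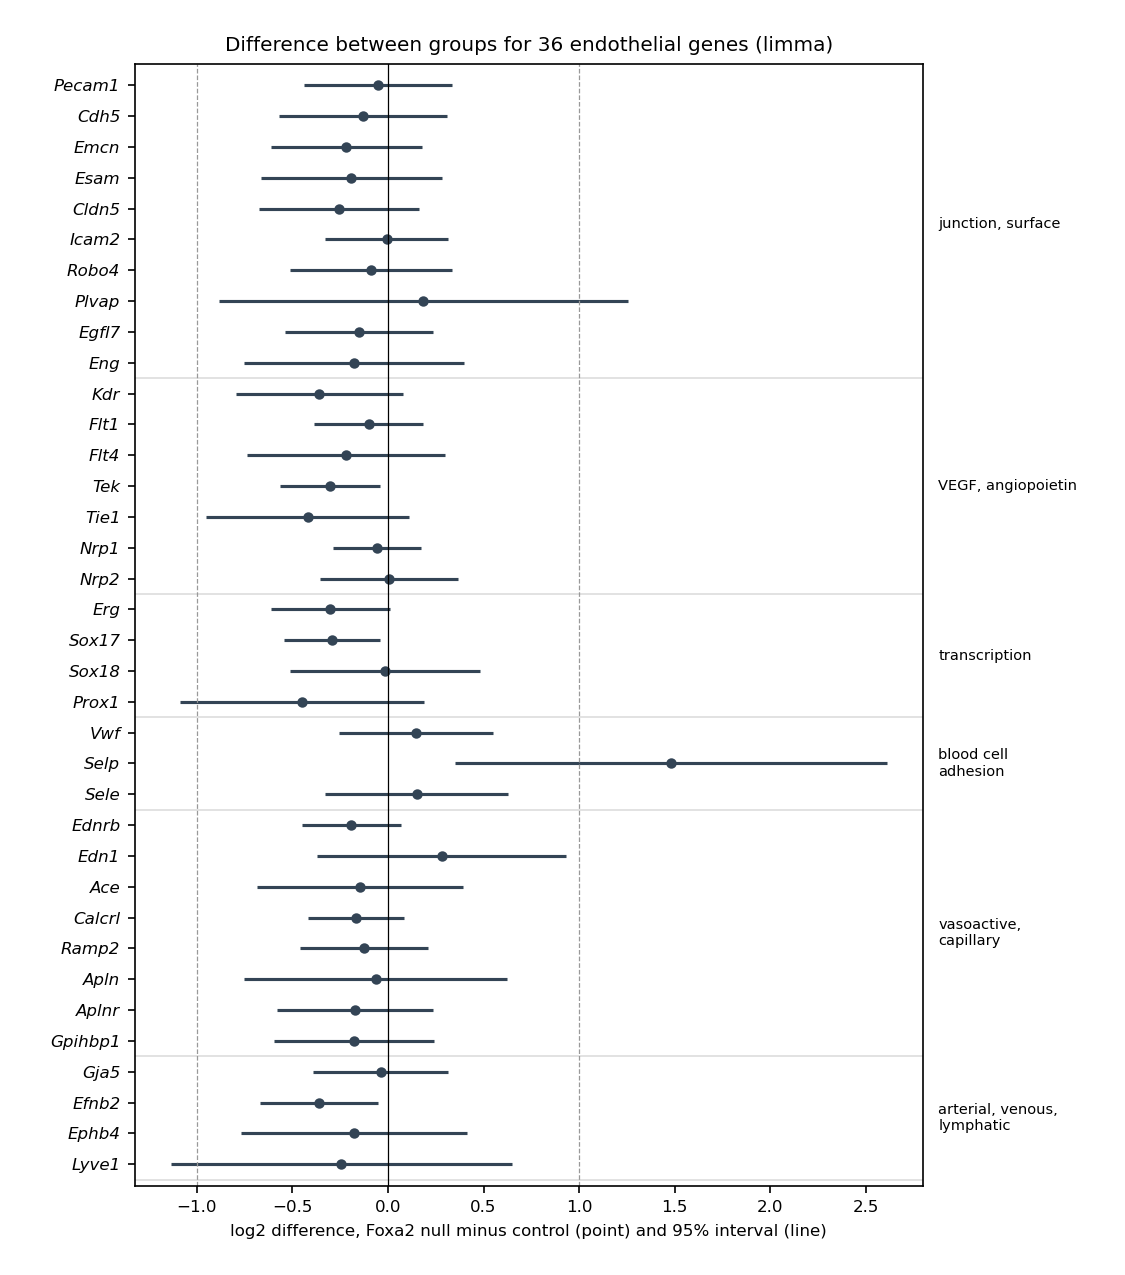
Difference of each gene between Foxa2-/- and control lungs on the log2 scale (points) with its 95% interval from limma (lines); dashed lines mark 2-fold in each direction. Intervals of 32 of the 36 genes stay between the dashed lines, and those of Tek, Sox17, Efnb2 and Selp do not cross 0, before any adjustment for 18193 genes.

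All 4 transcription factors had a lower mean in Foxa2-/- lungs. For Sox17 and Erg every Foxa2-/- lung lay below all controls (50%, against 8.73% of all genes). Sox17, a SOX factor that specifies arterial endothelium, read 11.89, 11.91 and 12.01 in controls and 11.59, 11.61 and 11.73 in Foxa2-/- lungs. Replicate 1 was the lowest lung here, unlike in the junction genes. The difference was -0.29 (SE 0.11, limma adjusted p = 0.327). That probe set carries the suffix that Affymetrix gives to sets whose probes can match other sequences, and the other Sox17 probe set gave -0.32 (SE 0.17) with overlapping groups.

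Erg, an ETS factor that keeps endothelial genes on and inflammatory ones off, read 9.95, 9.82 and 9.56 in controls and 9.47, 9.46 and 9.49 in Foxa2-/- lungs. The Foxa2-/- lungs were nearly equal, and the lowest control was close to them (difference -0.30, SE 0.13, limma adjusted p = 0.419). The dimmer Erg probe set differed by -0.12 with overlap. Sox18, another SOX factor of vessels, differed by -0.02. Prox1, the factor that specifies lymphatic endothelium, had the largest negative mean difference of the 36 genes (-0.45, SE 0.27). It rested on control replicate 3, which read 10.13 against 8.91 to 9.30 in all other lungs, and was -0.15 without it.

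The genes for adhesion to blood cells and haemostasis were the only role group with no lower mean, and Selp had the largest difference of all 36. Selp encodes P-selectin, which endothelial cells and platelets store in granules and move to their surface to catch leukocytes. It read 7.499, 7.65 and 8.01 in controls and 8.54, 10.33 and 8.72 in Foxa2-/- lungs. Every Foxa2-/- lung was above every control, and replicate 2 was the highest.

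The Selp difference was 1.48 (SE 0.47, 95% interval 0.35 to 2.61), 2.79-fold, with an unadjusted p of 0.0179 and an adjusted p of 0.274 by limma, so it did not pass. The other Selp probe sets had the same order of groups, and in both of them replicate 2 was again the highest lung. The next brightest differed by 0.84 (SE 0.41), with the lowest Foxa2-/- lung at 6.83 close to the highest control at 6.81. The dimmest read 4.53, 4.27 and 4.91 in controls and 5.31, 6.98 and 5.40 in Foxa2-/- lungs. All but replicate 2 lay under the arrays' 25th percentiles (5.69 to 5.78), so no size is given for it. That probe set also carries the suffix described for Sox17. Without Foxa2-/- replicate 2 the difference was 0.91, and within the shared title number it was 1.88.

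Because platelets also carry P-selectin, their genes were set beside it. Of 9 platelet and megakaryocyte genes 8 were measured, none passed, and their differences ran from -0.19 to 0.31. The mean log2 signal of these 8 genes was 8.72 to 8.82 in controls and 8.65 to 9.15 in Foxa2-/- lungs, and their part in the Selp difference was not tested. Treml1 (0.31, SE 0.19) and Itga2b (0.21, SE 0.17) had the smallest p values of that list. Pf4, a platelet chemokine, read 11.08, 10.84 and 11.58 in controls and 11.13, 11.52 and 11.31 in Foxa2-/- lungs.

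Sele, the E-selectin that endothelium makes on cytokine stimulation, was dim in every lung (4.46 to 5.15, whereas the arrays' 25th percentiles were 5.69 to 5.78). No fold is given, since whether signals this low exceed background was not tested. Vwf, the clotting factor stored together with P-selectin, read 12.30, 12.09 and 11.80 in controls and 12.40, 12.06 and 12.18 in Foxa2-/- lungs. The groups overlapped, with a difference of 0.15 (95% interval -0.26 to 0.55).

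**Figure D3:**
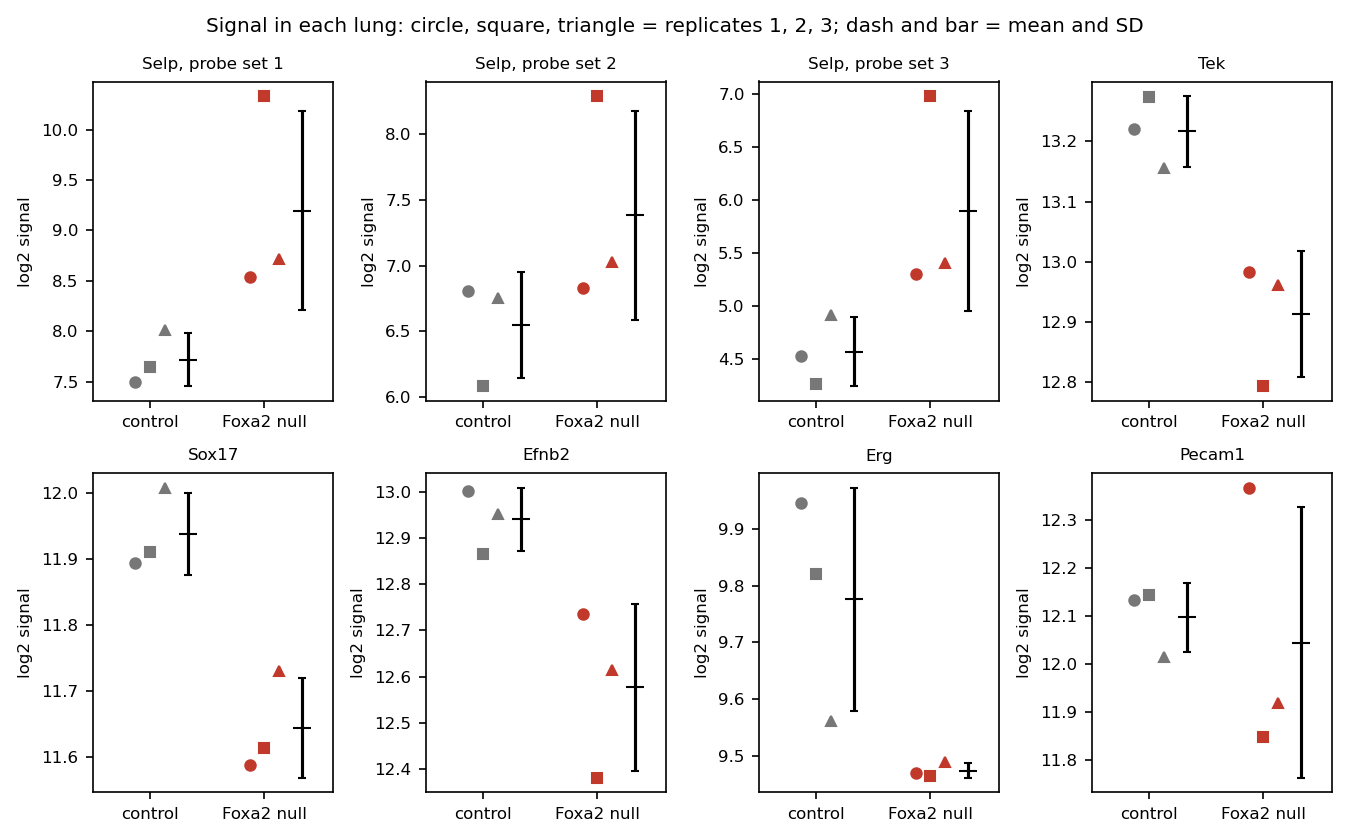
Log2 signal of the 3 Selp probe sets, in order of brightness, and of Tek, Sox17, Efnb2, Erg and Pecam1 in each lung, with the mean and SD of each group; each panel has its own axis, which does not start at 0. All Foxa2-/- lungs lie above all controls for the Selp probe sets and below them for Tek, Sox17, Efnb2 and Erg, while Pecam1 has replicate 1 above and replicates 2 and 3 below the controls.

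Of the 8 vasoactive and capillary genes, 7 had a lower mean in Foxa2-/- lungs and none passed. Ednrb, the endothelin B receptor, which marks the large alveolar capillary cells called aerocytes, read 12.91, 12.71 and 12.78 in controls and 12.58, 12.58 and 12.66 in Foxa2-/- lungs. The groups did not overlap (difference -0.19, SE 0.11), and its dimmer probe sets gave -0.37 and -0.44. Edn1, the ligand endothelin-1, differed by 0.28 (SE 0.27) with 1 control at 9.67 below all other lungs.

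Calcrl and Ramp2 together form the receptor for adrenomedullin, a vessel-stabilising peptide. Calcrl read 13.31, 13.37 and 13.36 in controls and 13.09, 13.27 and 13.19 in Foxa2-/- lungs, below the controls in each (difference -0.17, SE 0.10, limma adjusted p = 0.586). Ramp2 read 13.43, 13.49 and 13.28 in controls and 13.43, 13.05 and 13.34 in Foxa2-/- lungs, with overlap and a difference of -0.13. Ace, angiotensin-converting enzyme, differed by -0.15 with replicate 1 the highest and replicate 2 the lowest of the 6 lungs (11.97 and 11.09).

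Apelin (Apln) is a mark of aerocytes and its receptor (Aplnr) of general capillary cells. They differed by -0.06 (SE 0.29) and -0.17 (SE 0.17), and neither group of lungs stood clear of the other. Gpihbp1, which holds lipoprotein lipase on the capillary wall, differed by -0.18 (SE 0.17). Over wider lists that also hold some of the 36 genes, the median difference was -0.15 for 9 aerocyte genes and -0.16 for 8 general capillary genes. No gene of either list passed. Of the aerocyte genes, 22.2% had every Foxa2-/- lung above all controls (10.8% of all genes) and 11.1% had every one below (8.73%). For general capillary genes these shares were 0% and 25%. Car4, another aerocyte gene, read 12.90, 12.88 and 12.76 in controls and 13.18, 12.96 and 12.99 in Foxa2-/- lungs. Each Foxa2-/- lung was above each control (difference 0.20, SE 0.11). The smallest p values were those of Sirpa (0.45, SE 0.11) and Kdr among aerocyte genes, and of Ptprb, an endothelial phosphatase (-0.26, SE 0.13), and Kit (-0.24, SE 0.17) among general capillary genes. Which cells gave the Sirpa signal was not tested, and macrophage genes also had higher means, as given below.

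Genes of vessel type had lower means throughout, in 4 of 4. Efnb2 encodes ephrin-B2, the arterial partner of the venous receptor EPHB4. It read 13.002, 12.87 and 12.95 in controls and 12.74, 12.38 and 12.62 in Foxa2-/- lungs, every Foxa2-/- lung below every control. The difference was -0.36 (SE 0.13, 95% interval -0.67 to -0.05), 1.29-fold lower, with a limma adjusted p of 0.326. The other 3 Efnb2 probe sets gave -0.31, -0.24 and -0.04, the dimmest being the smallest.

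Ephb4 differed by -0.18, with replicate 1 at 11.31 above the controls (10.84 to 11.10) and replicates 2 and 3 at 10.51 and 10.44 below them. Gja5, an arterial connexin, differed by -0.04. Lyve1, a hyaluronan receptor of lymphatic endothelium and of some tissue macrophages, read 11.95, 11.87 and 11.41 in controls and 10.69, 11.65 and 12.15 in Foxa2-/- lungs. The Foxa2-/- lungs enclosed the controls on both sides, and the other Lyve1 probe set had the same order of lungs. Without replicate 1 its difference turned from -0.24 (SE 0.37) to 0.16 (SE 0.23).

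Endothelial genes outside the 36 also had mostly lower means. Of 40 such genes, 37 had a lower mean in Foxa2-/- lungs (92.5%, against 49.2% of all genes), with a median of -0.19, and none passed. Every Foxa2-/- lung was below all controls for 9 (22.5%, against 8.73%) and above for 0 (against 10.8%). In replicates 2 and 3 together, 24 of the 40 lay below every control (60%, against 19.1% of all genes). Replicate 1 was above every control for 10 of the 40 and below every control for 12. The smallest p values belonged to Ushbp1 (-0.42, SE 0.13) and Tal1, a transcription factor of blood and vessel precursors (-0.49, SE 0.16), with limma adjusted p values of 0.245 and 0.281.

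Among ligands, co-receptors and processing genes of these pathways, 33 of 36 entries were measured. By the test 2 fell, where 0.0989% of all genes were called lower, and none rose, where 0.473% were called higher. Sema3a, a class 3 semaphorin that binds neuropilin-1, fell from 11.38, 11.35 and 11.47 in controls to 10.26, 10.45 and 10.53 in Foxa2-/- lungs. All 3 Foxa2-/- lungs were clear of the controls (difference -0.99, SE 0.12, limma adjusted p = 0.036). Apela, another ligand of the apelin receptor, fell (limma adjusted p = 0.036), from 7.42, 7.13 and 7.93 to 5.73, 5.601 and 5.28, where each Foxa2-/- value lay under its array's 25th percentile. No size is given for that change, since such signal was not shown to exceed background.

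Both calls held without Foxa2-/- replicate 1 and ended when any other lung was left out, or with the title number as a fixed block. Over the whole array, only 0 to 19 genes passed in those leave-outs and 0 with the fixed block. Such ends are therefore not particular to these genes. That of Sema3a also ended with cyclic loess (adjusted p = 0.0502), and that of Apela with the mean of its probe sets (adjusted p = 0.0502).

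The ligands of the VEGF receptors were looked at after their values had been seen. Vegfc, the ligand of FLT4, read 11.13, 10.92 and 11.44 in controls and 10.48, 10.28 and 10.36 in Foxa2-/- lungs. Each Foxa2-/- lung was below each control, with a difference of -0.79 (SE 0.16) that did not pass (limma adjusted p = 0.104). The Vegfc probe set carries the suffix described for Sox17. Vegfa, which alveolar epithelium makes for the capillaries, read 11.83, 12.07 and 12.06 in controls and 11.72, 11.59 and 11.62 in Foxa2-/- lungs, a difference of -0.34 (SE 0.12, limma adjusted p = 0.305).

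Leukocyte and macrophage genes had higher means in Foxa2-/- lungs. The leukocyte list had 5 of 6 genes with every Foxa2-/- lung above all controls (83.3%, against 10.8% of all genes). In that list 1, Spi1, passed (1.10, SE 0.15, limma adjusted p = 0.0493). The macrophage list had 8 of 10 above all controls (80%). There Cd68 (1.45, SE 0.13) and Itgax (1.94, SE 0.23) rose (limma adjusted p of 0.0198 and 0.036). Of all genes, 0.473% were called higher. The Spi1 call ended without any 1 lung, and the Cd68 and Itgax calls without any lung but Foxa2-/- replicate 1. With a lung other than that replicate left out, only 0 to 19 genes passed over the whole array. The mean log2 signal of the macrophage genes was 10.92 to 10.97 in controls and 11.55 to 12.16 in Foxa2-/- lungs, lowest in replicate 1 and highest in replicate 2. The corresponding ranges for leukocytes were 11.06 to 11.51 and 11.74 to 12.40. Their part in the lower endothelial values was not tested.

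Lists of other lung cells had medians of either sign. The median difference was -0.22 for 11 pericyte and smooth muscle genes, -0.16 for 8 fibroblast genes, -0.03 for 9 alveolar epithelial genes, 5 of them negative, and 0.25 for 4 red cell genes. It was -0.23 for 8 lymphatic genes, a list that includes Prox1, Lyve1 and Flt4 of the 36, with no gene of these lists past the test. The smallest p values belonged to Abcc9 (-0.44) and Kcnj8 (-0.51), potassium channel subunits of pericytes, Meox2 (-0.73) and Dcn (-0.67) of fibroblasts, Thy1 (1.13) and Reln (-0.86) of the lymphatic list, and Rtkn2 (-0.52) and Sftpa1 (0.32) of alveolar epithelium. Heart muscle genes, which the muscle of pulmonary veins also expresses, had a median of -0.59 over 7 genes, with overlapping groups for each and the smallest p values for Nppa (-0.59) and Tnnt2 (-0.97). Red cell genes were highest in Foxa2-/- replicate 1 (mean log2 signal of 4 genes 9.22, against 7.42 to 8.51 in controls and 7.55 and 7.96 in replicates 2 and 3). None passed, with the smallest p values for Epb42 (0.19) and Hba-a1. Hba-a1 read 4.76 to 5.06 over all lungs, under the arrays' 25th percentiles (5.69 to 5.78), so no size is given for it. The mean and the median of the red cell list include it.

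**Figure D4:**
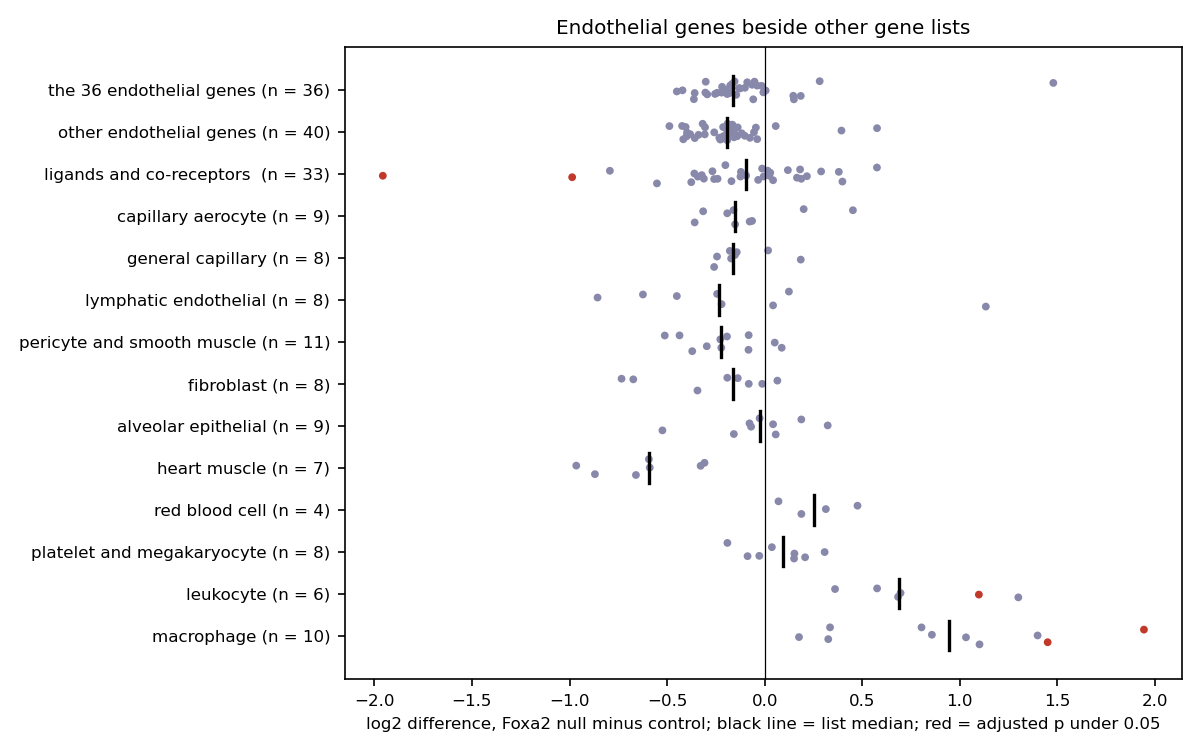
Difference of each measured gene between Foxa2-/- and control lungs on the log2 scale, by gene list; black lines are list medians and red points passed the limma test. The 36 endothelial genes and 40 further ones centre at -0.16 and -0.19, with Selp apart on the right, while leukocyte and macrophage genes centre at 0.69 and 0.94.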

How the data were processed

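RNA of whole lungs was hybridised to Affymetrix mouse arrays, 1 per sample. The deposited values are log2 signals that the authors made with RMA, per the submitters' processing notes, with no version named. RMA equalises the arrays, so a shift of most genes would not be seen. Of 45101 probe sets 64 controls were left out. The 34945 with 1 symbol in the platform annotation gave 18193 genes, and no dim gene was removed. Groups came from the genotype label, and replicate numbers follow accession order. The labels do not tie arrays to separate animals: p-values therefore reflect only how far these arrays vary, in part perhaps technically.

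The test was limma's (version 3.58.1, R 4.3.3; lmFit, eBayes, two-sided, Benjamini-Hochberg over all genes, threshold 0.05), checked on simulated data. The simulated errors were independent, so the check does not cover arrays or genes that vary together. For the random block, statmod 1.5.0 was used. Genes and lists were chosen with earlier results of these data known. Values per lung were given for genes that passed, whose groups did not overlap or that were brightest in their role group; Cldn5, Pecam1, Cdh5, Prox1, Kdr, Tie1, Flt4, Ephb4, Plvap, Vegfa, Vegfc, Lyve1 and Pf4 were added after their values were seen. In other lists, genes that passed were named, or else the 2 with the smallest p. Car4 was added to these after its values were seen. Alternatives covered normalization, dim-probe filters, probe set choice, variance model, array weights, title number, threshold and each lung left out.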

Additional observations from a re-analysis of the deposited data

How the results depend on the processing

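No endothelial gene passed under any of the settings tried: median centring, cyclic loess, 2 brightness filters, averaged probe sets, trend and robust eBayes, array weights, the title number as a random or fixed block, each lung left out, an adjusted p under 0.1, or a 2-fold minimum. With the fixed block, and without control replicate 1, control replicate 2 or Foxa2-/- replicate 3, no gene of the array passed. Those settings therefore could not set the endothelial genes apart from others. The 2-fold minimum could only narrow the main result. The smallest adjusted p among the 36 was 0.0778 with array weights and 0.0902 without Foxa2-/- replicate 1. Their median difference ran from -0.25 to -0.053 with a lung left out. Calls over all genes, 104 with the main settings, numbered 48 with cyclic loess, 607 with array weights, 399 with a random block on the title number, 0 with a fixed one (2121 at an unadjusted p under 0.05), 320 at an adjusted p under 0.1, and 0 to 249 with a lung left out (1654 to 2866 at an unadjusted p under 0.05). The causes were not tested. The calls of Sema3a, Apela, Cd68 and Itgax held without Foxa2-/- replicate 1 and ended without any other lung; that of Spi1 ended without any one. All 5 calls ended with the fixed block. Those of Sema3a and Spi1 ended with cyclic loess (limma adjusted p of 0.0502 and 0.0594), and that of Spi1 with trend and robust eBayes (0.0569). That of Apela ended with averaged probe sets (limma adjusted p = 0.0502, range over its alternatives 0.0101 to 0.264). Its difference was then smaller than with the brightest probe set alone. Vegfc passed with array weights (0.0327) and the random block (0.0486). Among the alternatives' values for the 36 genes, 507 kept their sign and 30, of 11 genes, changed it, none of them called. With median centring Icam2 was 0.016 and Sox18 0.0072, and with cyclic loess Icam2 was 0.0047. Plvap was -0.11 with array weights, -0.12 with the random block and -0.52 with the fixed block; Nrp2 was -0.047 and -0.12 with these blocks, Lyve1 0.035 with the fixed block, and Nrp1 0.11 with the mean of its probe sets. With a lung left out the ranges were -0.21 to 0.046 for Pecam1, -0.0898 to 0.083 for Icam2, -0.23 to 0.037 for Robo4, -0.35 to 0.47 for Plvap, -0.13 to 0.092 for Nrp2, -0.20 to 0.081 for Sox18, -0.38 to 0.057 for Ace, -0.34 to 0.18 for Apln, -0.13 to 0.062 for Gja5 and -0.57 to 0.16 for Lyve1. No paired analysis was possible because replicate numbers follow accession order and pair nothing; the title number, which 1 control and 2 Foxa2-/- lungs share, was fitted as a block instead. Depth is not a property of arrays; their number, 3 a group, limits what can be seen.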
